A study of Mus musculus with 81 samples.

Results

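The DNA replication machinery was followed as 43 genes, chosen by their symbols as subunits of the complexes that copy the genome and reassemble chromatin behind the fork. The files of all libraries listed 54079 genes in common, and all 43 members were among them. Their RNA was measured as read counts in bone marrow-derived macrophages (BMDMs) and peritoneal macrophages of mice that lacked the histone variant H3.3 in myeloid cells (cKO) and of WT mice, in 81 libraries.

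Replication starts at origins marked by the origin recognition complex, where Cdc6 and Cdt1 load the MCM2-7 helicase during G1 and geminin (Gmnn) blocks a further loading by Cdt1. Cdc45, the GINS complex and Mcm10 then turn the loaded helicase into a moving fork, primase and the polymerases make DNA on the template that replication protein A (RPA) keeps single-stranded, the clamp PCNA holds the polymerases, and chromatin assembly factor 1 (CAF-1) places new H3-H4 behind the fork. Many of these genes are transcribed at the G1/S transition under E2F factors, so that in macrophage cultures their transcripts are known to fall as progenitors leave the cell cycle.

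WT mice carried H3f3a fl/fl and H3f3b fl/fl without cre, and cKO mice carried both floxed pairs with LysM cre/cre, a cre driven by a gene of maturing myeloid cells. All mice were of the C57BL/6 background, 8 to 10 weeks old and of both sexes. The marrow was grown in L929-conditioned medium. Of the libraries, 79 fell into 27 groups of 2 or 3. A time course held WT and cKO cells at days 3, 5 and 7. Day 8 BMDMs were left untreated or given IFNγ for 12 h. Peritoneal macrophages were taken from WT and cKO mice. A set of BMDMs was lysed at day 6 after growth from day 0 with no antibody, with an IgG1κ isotype control antibody or with an antibody against the type I interferon receptor chain IFNAR1. Finally, 3 sets of WT and cKO BMDMs, called sets 1, 2 and 3 here, stood beside cKO mice that also lacked Sting, Mavs or Irf7 (double KOs). The day of culture of these sets, and which set belongs to which double KO, are not in the labels.

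Depth, as counts on genes, lay between 14419697 and 20220329 for time course libraries. Day 8 libraries had 3614967 to 9879339, peritoneal ones 7625225 to 23381318, those with antibodies 5295144 to 34380735 and those of the sets 21504555 to 45581528. Levels below are CPM, a gene's reads relative to the scaled size of its library, after TMM scaling within an experiment. The deleted gene H3f3a was at 33.6 to 93.8 CPM in WT libraries and at 1.21 to 15.3 CPM in cKO and double KO libraries. In the antibody experiment H3f3b was at 16.7 to 67.8 CPM in the cKO against 295 to 468 CPM in WT, and in the sets and double KOs at 71.9 to 220.3 CPM against 200.4 to 285 CPM. In the time course H3f3b lay at 148 to 222 CPM in the cKO and at 181 to 279.8 CPM in WT. In peritoneal cells it overlapped, at 302 to 361 CPM in the cKO and 355 to 536 CPM in WT. At day 8 it was at 173 and 187 CPM in the untreated cKO against 206 to 244 CPM in WT. With IFNγ it was at 325 and 237 CPM against 312 to 316 CPM. The paper describes the deletion of H3f3b as variable. Tmem173 (Sting) was at 5.01 to 6.10 CPM in the Sting double KO against 68.2 to 91.7 CPM in the cKO, whereas reads of Irf7 (98.3 to 112 CPM against 249 to 470.2 CPM) and of Mavs (37.2 to 37.9 CPM against 36.0 to 51.6 CPM) remained in their double KOs, so that the Mavs reads do not check that label. Several libraries stood apart from their group, namely WT day 7 replicate 2, cKO day 8 IFNγ replicate 1, 5 libraries of the antibody experiment and WT set 3 replicate 1, and results that rest on them are given with and without them. In bulk RNA, fewer cycling cells and less RNA per cell cannot be told apart.

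Stretches of promoter next to the start of transcription are shown for 6 index members of the helicase, its loading, polymerase alpha and origin recognition. RefSeq windows on GRCm38.p6, from 250 bases before to 50 after a start, were found for 35 of the 43 members. They were searched on both strands for the E2F motif letters TTTCCCGC, TTTCGCGC, TTTGCCGC and TTTGGCGC. At least 1 of these occurred in 15 of 35 members (42.9%) and in 704 of 27025 genes with a window (2.60%). The matches are a description of the letters and no measure of binding. The 170 bases before the start are printed 5′ to 3′ on the strand of the gene, with the motif in capitals and overlapping matches running together. Mcm5 lies at chr8:75109339-75109508 on the plus strand and Mcm6 at chr1:128359706-128359875 on the minus strand, both subunits of the helicase. Cdc6, the helicase loader, lies at chr11:98907981-98908150 (plus), Pola1, the catalytic subunit of polymerase alpha, at chrX:93632156-93632325 (minus) and Orc1, the largest subunit of the origin recognition complex, at chr4:108579284-108579453 (plus). Mcm2, at chr6:88898781-88898950 on the minus strand, is shown as a helicase subunit without a match in this stretch.
Mcm5: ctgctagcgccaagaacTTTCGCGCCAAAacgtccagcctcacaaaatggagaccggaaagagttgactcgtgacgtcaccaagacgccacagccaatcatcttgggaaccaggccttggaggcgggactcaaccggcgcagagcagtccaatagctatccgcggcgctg
Mcm6: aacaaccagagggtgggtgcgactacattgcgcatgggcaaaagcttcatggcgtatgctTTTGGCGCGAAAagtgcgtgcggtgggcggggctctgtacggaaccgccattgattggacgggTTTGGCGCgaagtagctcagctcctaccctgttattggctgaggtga
Cdc6: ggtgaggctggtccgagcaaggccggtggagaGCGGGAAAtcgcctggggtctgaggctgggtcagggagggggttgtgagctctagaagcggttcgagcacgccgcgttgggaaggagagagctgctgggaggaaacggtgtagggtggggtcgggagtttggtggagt
Pola1: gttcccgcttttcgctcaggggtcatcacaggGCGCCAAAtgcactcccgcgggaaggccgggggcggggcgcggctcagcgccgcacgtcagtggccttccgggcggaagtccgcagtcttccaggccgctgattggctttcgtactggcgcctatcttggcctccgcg
Orc1: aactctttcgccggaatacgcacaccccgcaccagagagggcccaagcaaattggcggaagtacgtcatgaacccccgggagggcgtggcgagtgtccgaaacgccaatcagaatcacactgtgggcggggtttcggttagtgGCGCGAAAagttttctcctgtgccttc
Mcm2: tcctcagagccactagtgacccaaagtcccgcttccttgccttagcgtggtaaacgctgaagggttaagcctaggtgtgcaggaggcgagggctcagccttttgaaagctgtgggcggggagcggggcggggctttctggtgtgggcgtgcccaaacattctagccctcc
The first base of the matches lay at -153 and -149 in Mcm5, at -110, -106 and -47 in Mcm6, at -138 in Cdc6 and in Pola1, and at -27 in Orc1, counted from the start.

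To compare levels between genes, CPM were divided by the exonic length in kilobases (RPKM). In WT cells at day 5, Pcna stood highest of the members at 117.1 RPKM ± 7.58 (SD, n = 3). The helicase subunits Mcm6 (54.4), Mcm3 (46.7), Mcm5 (44.5) and Mcm4 (35.5) followed, then the ligase Lig1 (32.3), Cdt1 (31.3) and its inhibitor Gmnn (31.0). Neighbours such as Mcm3 and Mcm5, with SDs of 3.5 and 6.57, did not differ beyond their spread. The origin recognition subunits Orc4 (3.58), Orc1 (3.34) and Orc5 (2.84) were near the lower end, and the flap endonuclease Fen1 was lowest at 1.66 RPKM ± 0.173. Of the exonic bases of Fen1, 84.2% overlap other genes (Gm10143 and Tmem258), as do 67.3% of those of the GINS subunit Gins2, 52.5% of the large CAF-1 subunit Chaf1a and 29.8% of Orc2, and counting without strand leaves out reads that 2 genes share, so their levels are uncertain. Pcna has pseudogene copies (Pcna-ps1 and Pcna-ps2) that could take reads from it.

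In the time course the members moved little between days and genotypes, and none passed the test. A gene is called here when edgeR gave it an adjusted p under 0.05, over all genes tested. At day 3, 38 of the 43 members were lower in the cKO, with a median log2 fold change of -0.21. No member was called, none had an unadjusted p under 0.05 and DESeq2 called none, against 8.65% of all genes called. Pold2, an accessory subunit of polymerase delta, was at 38.2, 36.6 and 28.2 CPM in the 3 WT libraries and at 25.5, 21 and 21.6 CPM in the cKO (log2 fold change -0.60, SE 0.299, adjusted p = 0.255). For Pola1 the WT libraries had 77.2, 75.8 and 62.5 CPM and the cKO libraries 56.0, 52.8 and 56.2 CPM. The groups of both genes did not overlap. Rpa1, the largest RPA subunit, likewise stood at 165, 164 and 148 CPM in WT and at 117, 129 and 120.1 CPM in the cKO. Of the loaders, Cdc6 was at 35.0, 44.3 and 38.3 CPM in WT and at 31.8, 33.9 and 34.9 CPM in the cKO, groups that only just parted (-0.22, SE 0.409, adjusted p = 0.798). Cdt1 overlapped, at 113, 121 and 114 CPM against 108, 117 and 111 CPM.

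At day 5, 36 members were higher in the cKO (median 0.10), again with no call, none at an unadjusted p under 0.05 and none by DESeq2 (3.12% of all genes called). Mcm10, a helicase activator, was at 61.7, 59.9 and 54.9 CPM in WT and at 81.1, 72.5 and 73.7 CPM in the cKO (log2 fold change 0.37, SE 0.344, adjusted p = 0.686). Its groups did not overlap. All groups of the time course share 1 estimate of the spread. At day 7 no member was called by edgeR or DESeq2 and none had an unadjusted p under 0.05 (1.82% of all genes), and 39 were higher in the cKO (median 0.26). That direction rested on WT day 7 replicate 2. In this library Mcm2 was at 27.1 CPM, against 159 and 127 CPM in the other WT and 154, 139.5 and 136 CPM in the cKO libraries. Pcna was at 84.9 CPM there, against 425 and 221 CPM, while the origin recognition subunit Orc3 was at 46.1 CPM beside 46.1 and 47.7 CPM. Its macrophage markers summed to 9458 CPM, the highest of the time course, beside 6870 and 5841 CPM in the other WT day 7 libraries.

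Without this library the median at day 7 was -0.06 and 29 of 43 members were lower in the cKO. In the same fit 5 of 43 members were called at day 3, all lower in the cKO. Of all genes 13.4% were called in either direction, a share near that of the members. The members called were Pold2 (log2 fold change -0.60), Pole, the catalytic subunit of polymerase epsilon (-0.46), its partner Pole2 (-0.44), Pola1 (-0.39) and Rpa1 (-0.39). From day 3 to day 5 in the cKO, 42 of 43 members had a higher value (median 0.30), with no call, 4 at an unadjusted p under 0.05 and none by DESeq2 (4.89% of all genes). Without WT day 7 replicate 2, 9 were called higher (9.72% of all genes): Pole (0.74), Pole2, Lig1, Pola1, Mcm10, the primase subunit Prim1, Mcm4 and the clamp loader subunits Rfc5 and Rfc1. Pole was at 51.4, 51.5 and 56.6 CPM in the cKO at day 3 and at 75.2, 93.6 and 98.1 CPM at day 5. In WT it was at 77.1, 79.2 and 62.7 CPM and then at 86.3, 85.9 and 94.0 CPM.

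The other steps of the time course also gave no call by either tool and no member at an unadjusted p under 0.05. In WT the median was 0.01 from day 3 to day 5 (2.91% of all genes called) and -0.33 from day 5 to day 7 (0.150%), or 0.02 without WT day 7 replicate 2. In the cKO it was -0.12 from day 5 to day 7 (0.0501%). The change of the cKO effect from day 3 to day 5 had a median of 0.30 with no call by either tool, none at an unadjusted p under 0.05 and 0.0% of all genes called. From day 3 to day 7 it had a median of 0.48, or 0.13 without WT day 7 replicate 2, with no call by either tool, 1 member at an unadjusted p under 0.05 and 0.0439% of all genes called.

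Among genes outside the machinery, all 16 mitotic genes were lower in the cKO at day 3 (median -0.58, none called, 8 at an unadjusted p under 0.05). Mki67, a marker of cycling cells, was at 707, 766 and 501 CPM in WT and at 299, 286 and 366 CPM in the cKO (log2 fold change -1.05, SE 0.367, adjusted p = 0.0887). Myeloid progenitor markers went the other way, with summed levels of 479 to 807 CPM in WT and 884 to 1273 CPM in the cKO at day 3. At day 5 they were at 57.0 to 89.7 CPM and 189 to 474 CPM, and 5 of 8 were called higher. The part of cell composition in the member values was not tested.

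**Figure D1:**
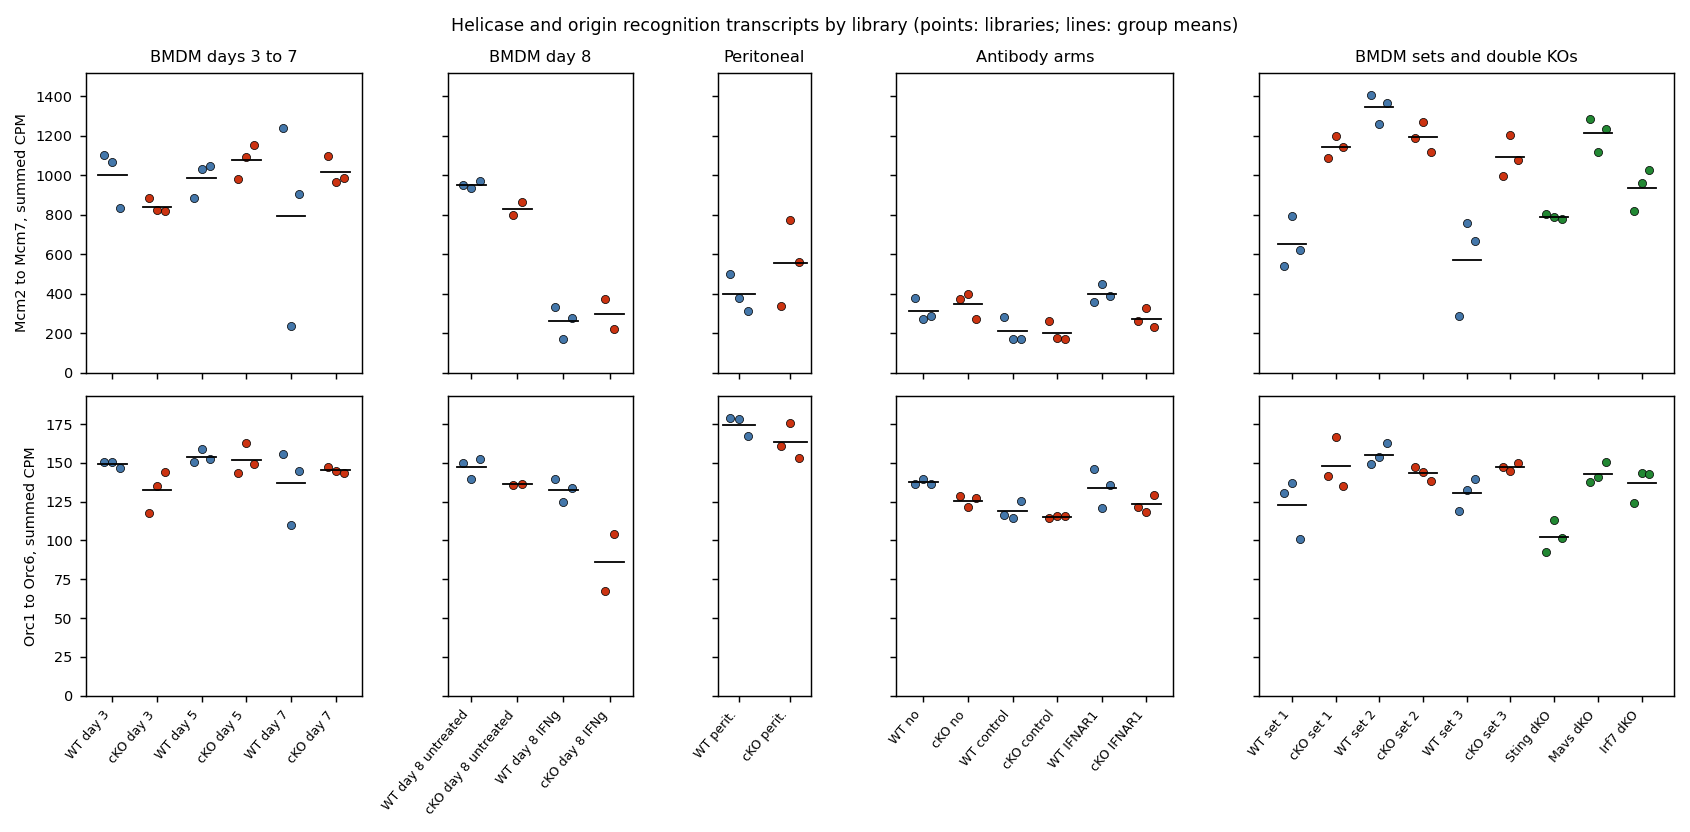
Summed CPM of the MCM helicase, the 6 genes Mcm2 to Mcm7 (upper row), and of the 6 origin recognition genes Orc1 to Orc6 (lower row) by group, in 1 column per experiment, with a point for each library and a line at each group mean. The helicase sum of WT day 7 replicate 2 (236) lies far under those of the other WT day 7 libraries (1237 and 905.8), and the IFNγ groups lie at 173 to 374 against 800.4 to 972 untreated, while the origin recognition sums keep a narrower range.

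With IFNγ, the cytokine that activates macrophages, 25 of the 43 members fell at day 8 in WT and 21 in the cKO. In WT no member rose, beside 38.9% of all genes called and 19.3% called lower. The median over the members was -0.86, against -0.01 over all genes. Lig1, which seals Okazaki fragments, went from 113, 97.7 and 113 CPM to 29.6, 17.1 and 24.6 CPM (log2 fold change -2.18, SE 0.226, edgeR adjusted p = 5.79e-05). All treated libraries lay under all untreated ones. Mcm6 fell from 253, 280.0 and 268 CPM to 78.5, 38.5 and 61.9 CPM (-2.16, SE 0.291, adjusted p = 0.000302). Mcm2 fell from 134, 126 and 128 CPM to 38.8, 17.7 and 31.3 CPM (-2.14, SE 0.259, adjusted p = 0.000155). The small CAF-1 subunit Chaf1b fell from 37.3, 33.0 and 33.4 CPM to 11.9, 5.06 and 8.79 CPM (-2.0, SE 0.260, adjusted p = 0.000242).

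The calls were spread unevenly over the roles, which was not tested. All 6 MCM2-7 genes were called (median -1.83), as were 3 of 4 genes of polymerase alpha and primase (median -1.16), 4 of 5 of polymerases delta and epsilon (-1.36) and both CAF-1 genes. Of the 6 origin recognition genes 3 were called, Orc1 (-0.72), Orc2 (-0.70) and Orc6 (-0.77). Of the clamp and its loader only Rfc4 was (-1.16). Pcna was at 365, 381 and 446 CPM untreated and at 371, 319.5 and 460.1 CPM with IFNγ (log2 fold change -0.05, SE 0.166, adjusted p = 0.837). Mcm10 was at 54.6, 35.8 and 48.8 CPM and then at 61.1, 39.0 and 37.7 CPM. Both overlapped. Gmnn (48.4, 37.8 and 53.0 CPM, then 45.2, 32.5 and 44.4 CPM) overlapped too, whereas its target Cdt1 fell from 71.5, 66.9 and 77.9 CPM to 46.1, 24.9 and 34.3 CPM (-1.04, SE 0.223, adjusted p = 0.00463). Orc4 was the member with the highest fold change, at 28.0, 25.5 and 24.5 CPM untreated and 39.0, 41.4 and 38.5 CPM with IFNγ (0.61, SE 0.322, adjusted p = 0.165). Its groups did not overlap, though it was not called.

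The remaining roles gave the following in WT. Mcm5, a subunit of the helicase, went from 182, 164 and 179 CPM to 76.3, 40.5 and 67.9 CPM (-1.51, SE 0.211, adjusted p = 0.000386). Pold1, the catalytic subunit of polymerase delta, went from 79.2, 70.0 and 78.6 CPM to 28.7, 18.5 and 32.4 CPM (-1.52, SE 0.330, adjusted p = 0.00496). Rpa1, the largest RPA subunit, went from 144, 112 and 138 CPM to 58.0, 34.1 and 50 CPM (-1.47, SE 0.308, adjusted p = 0.00405). All treated libraries of these genes lay under all untreated ones. Orc2, an origin recognition subunit, went from 28.4, 23.9 and 27.2 CPM to 17.7, 13.8 and 17.3 CPM (-0.70, SE 0.219, adjusted p = 0.0286). Chaf1a, the large CAF-1 subunit, went from 55.5, 41.9 and 53.5 CPM to 25.9, 17.6 and 23.9 CPM (-1.16, SE 0.231, adjusted p = 0.00304). Members that did not pass the test included the GINS subunit Gins2, the clamp loader subunit Rfc3, Rpa2 and Fen1. Gins2 was at 25.4, 24.5 and 28.4 CPM untreated and at 20.6, 12.7 and 16.9 CPM with IFNγ (-0.64, SE 0.277, adjusted p = 0.093). Rfc3 was at 23.5, 21.9 and 26.4 CPM and then at 30.4, 25.6 and 23.7 CPM (0.15, SE 0.184, adjusted p = 0.547), and Rpa2 at 47.5, 36.5 and 46.6 CPM and then at 32.6, 28.4 and 35.3 CPM (-0.44, SE 0.190, adjusted p = 0.0937). The others without a call were Orc3, Orc4, Orc5, Gmnn, Gins3, Gins4, Mcm10, Pola2, Pold3, Pcna, Rfc1, Rfc2, Rfc5 and Rpa3.

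In the cKO, with 2 libraries a group, 21 members fell and 1 rose, beside 33.9% of all genes called and 16.4% called lower. Of the members that fell, 19 were shared with WT, 76.0% of the WT list and 90.5% of the cKO list. Mcm2 went from 118 and 134 CPM to 36.2 and 24.7 CPM (-2.06, SE 0.321, edgeR adjusted p = 0.00101). Mcm4 went from 96.0 and 88.6 CPM to 27.8 and 23.3 CPM (-1.86, SE 0.265, adjusted p = 0.000622). Pold2 went from 24.3 and 28.4 CPM to 9.06 and 4.95 CPM (-1.99, SE 0.320, adjusted p = 0.00123). Pole2 had the largest fitted fall (-2.71, SE 0.594, adjusted p = 0.00654), from 11.1 and 12.6 CPM to 0 and 2.59 CPM. The clamp loader subunit Rfc2 rose, from 48.2 CPM in both libraries to 79.1 and 67.5 CPM (0.60, SE 0.165, adjusted p = 0.0187).

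Replicate 1 of the cKO IFNγ group stood apart: it had 3614967 counts, 62.4% of them in 20 genes, and it held both Xist (27.2 CPM) and RNA of Y-linked genes (107 CPM). Without it, 24 members fell and 2 rose in the cKO (Rfc2 and Orc4, median -1.15, 41.5% of all genes called), and 32 were called in WT, of which 31 fell (52.2%). The lone library left was then assumed to vary like the others. Leaving out replicate 1 or replicate 2 of the untreated cKO left 13 and 12 calls in the cKO. A fit to only the 2 cKO groups left 6, and the counts without a share of all genes called show only how far the count moved.

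The effect of IFNγ was not shown to depend on the genotype, with no member called for the difference by edgeR or DESeq2, 2 at an unadjusted p under 0.05 and 0.0% of all genes called. Without replicate 2 of the cKO IFNγ group, which leaves only the replicate that stood apart, 13 were called. Between genotypes no member was called in untreated cells by either tool, none had an unadjusted p under 0.05 and 41 of 43 were lower in the cKO (median -0.20, 0.658% of all genes called). The genotypes were not balanced in sex-linked RNA. Replicate 3 of the untreated and IFNγ WT groups had Xist at 1049 and 880 CPM and Y-linked genes at 0 CPM. The untreated cKO libraries had Y-linked genes at 190 and 161 CPM. The part of sex in the member values was not tested. With IFNγ none was called by edgeR, which called 5.48% of all genes, and 1 by DESeq2 (median -0.12). The DESeq2 count, and other counts here without a share of all genes called, show only how far the count moved. Of the members 8 had an unadjusted p under 0.05 by edgeR, as had 3434 of all 13075 genes tested. Without replicate 1 of the cKO IFNγ group, Rpa2, Orc2 and Pole were called lower in the cKO (9.80% of all genes), and without replicate 2 there were 14 calls.

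Outside the machinery, 24 of 38 other replication genes fell with IFNγ in WT (median -0.74), and of 27 E2F and G1/S regulators 11 fell and 4 rose. None of the 16 mitotic genes was called in WT (median -0.39), 2 had an unadjusted p under 0.05, and 5 fell in the cKO (median -1.24). E2f1, an activator of these promoters, went from 61.5, 63.5 and 63.6 CPM to 27.7, 23.2 and 27.2 CPM in WT (-1.27, SE 0.190, edgeR adjusted p = 0.000583). Mki67 was at 736, 248 and 548 CPM untreated and at 357, 192 and 245 CPM with IFNγ (-0.95, SE 0.347, adjusted p = 0.0533). Cdkn1a, the cyclin-dependent kinase inhibitor p21, rose in WT from 236, 121 and 208 CPM to 298, 325 and 330.4 CPM (0.75, SE 0.211, adjusted p = 0.0176).

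**Figure D2:**
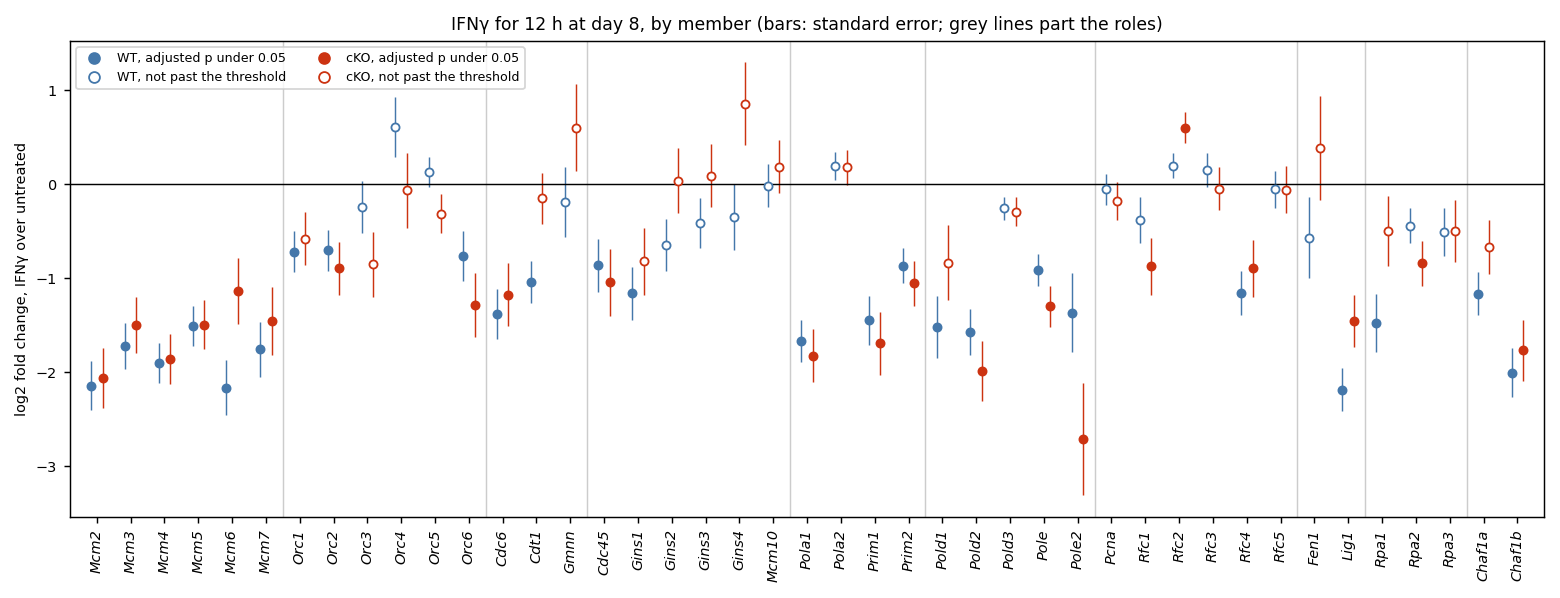
Log2 fold change of IFNγ over untreated cells for each member, in WT (3 libraries a group) and in the cKO (2 a group), with bars for the standard error, filled points for an adjusted p under 0.05 and grey lines between roles. The 6 MCM2-7 genes lie below 0 in both genotypes, and Pcna and Mcm10 lie near 0 in both.

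In peritoneal macrophages, resident cells of the body cavity, no member passed the test. Fen1, at 0.0911 to 0.225 CPM, was too low to be tested, so 42 were. None was called by edgeR or DESeq2 and none had an unadjusted p under 0.05, against 1.06% of all genes called. In value, 34 of 42 were higher in the cKO (median 0.33). Mcm2 was at 53.6, 38.4 and 35.7 CPM in WT and at 37.0, 108 and 74.2 CPM in the cKO (0.78, SE 0.352, adjusted p = 0.534), and Lig1 at 31.5, 21.5 and 19.8 CPM against 21, 58.0 and 34.6 CPM. The cKO libraries spread wider than the genotypes differed. Orc1 alone had groups that did not overlap, at 2.02, 1.42 and 1.46 CPM in WT and 2.18, 2.90 and 2.47 CPM in the cKO (0.66, SE 0.305, edgeR adjusted p = 0.554). How many of all genes part in this way was not counted, so this is no result about the members.

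The summed level of MCM2-7 in WT peritoneal cells was 315 to 501 CPM. The 3 WT libraries of the time course at day 5 had 883 to 1044 CPM, in an experiment scaled on its own. Peritoneal libraries were made with SMART-Seq v4 and BMDM libraries by rRNA depletion, so cell type and library preparation cannot be told apart. All 16 mitotic genes were higher in the peritoneal cKO (median 0.80, none called, 8 at an unadjusted p under 0.05), with Mki67 at 33.8, 36.5 and 34.9 CPM in WT and at 45.8, 76.9 and 71.8 CPM in the cKO. T cell markers summed to 3.26 to 13.7 CPM in WT and 13.4 to 38.8 CPM in the cKO (median log2 fold change 1.96, none called), and macrophage markers to 10790 to 12780 and 14750 to 16360 CPM. Their part in the member values was not tested.

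In the antibody experiment 11 members in WT and 5 in the cKO were lower with the isotype control antibody than without, and 21 and 4 were higher with the IFNAR1 than with the control antibody. In WT no member was higher with control antibody than with none, beside 9.74% of all genes called and 5.96% called lower (median -0.58). Pole was at 40.5, 29.5 and 31.6 CPM without antibody and at 19.9, 7.87 and 10.1 CPM with control antibody (-1.43, SE 0.333, edgeR adjusted p = 0.0183). Mcm10 was at 23.2, 17 and 19.4 CPM and then at 11.7, 5.61 and 6.22 CPM (-1.34, SE 0.311, adjusted p = 0.0179). Cdc45, which rides with the active helicase, was at 24.2, 19.8 and 22.9 CPM and then at 15.1, 7.99 and 9.06 CPM (-1.06, SE 0.233, adjusted p = 0.0147). Chaf1b was at 27.4, 46.2 and 30.6 CPM and then at 17, 16 and 17.5 CPM (-1.05, SE 0.247, adjusted p = 0.0192). None of these groups overlapped. The other called members were Prim1, Pola1, Pola2, Rfc4, Mcm3, Mcm4 and Orc6.

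With the IFNAR1 antibody, 21 members were higher than with control antibody in WT and none lower, beside 11.2% of all genes called and 7.38% called higher (median 0.76). Pole rose to 42.5, 43.4 and 40.1 CPM (1.74, SE 0.334, edgeR adjusted p = 0.00551). Prim1 went from 6.79, 3.62 and 3.57 CPM to 12.8, 16.1 and 12.1 CPM (1.54, SE 0.251, adjusted p = 0.00294). Lig1 went from 35.6, 19.8 and 21.5 CPM to 65.0, 86.6 and 54.5 CPM (1.42, SE 0.307, adjusted p = 0.0105), and Mcm10 to 23.6, 17.6 and 21.6 CPM (1.42, SE 0.311, adjusted p = 0.0115). The calls covered 4 of 6 MCM2-7 genes, 3 of 6 helicase activators, both CAF-1 genes and 1 of 6 origin recognition genes, Orc6. Orc3 (46.5, 46.0 and 52.3 CPM, then 46.8, 40.1 and 50.7 CPM) and Orc2 overlapped. So did Pole2, while Pcna (144, 96.0 and 100.1 CPM, then 160.4, 215 and 157 CPM) was not called at 0.65 (adjusted p = 0.0966). Both comparisons share the control antibody libraries, so that their opposite signs are not independent.

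In the cKO edgeR called 5 members lower with control antibody than with none (median -0.57), beside 2.09% of all genes. DESeq2 called 10 members, without its own share of all genes given here, so this shows only how far the count moved. Pole was at 39.0, 39.0 and 23.6 CPM and then at 15.8, 10.7 and 6.22 CPM (-1.58, SE 0.340, edgeR adjusted p = 0.0296). Mcm10 was at 26.5, 23.1 and 15.2 CPM and then at 9.63, 7.59 and 6.33 CPM (-1.43, SE 0.317, adjusted p = 0.0337), and Cdc45 at 17.1, 16 and 13.6 CPM and then at 8.80, 5.96 and 6.02 CPM (-1.11, SE 0.245, adjusted p = 0.0334). Pola1 was at 46.8, 46.4 and 34.2 CPM and then at 26.2, 18.6 and 17.7 CPM (-1.0, SE 0.197, adjusted p = 0.0222). None of these groups overlapped. The small RPA subunit Rpa3 was at 7.31, 6.65 and 5.54 CPM and then at 4.16, 3.07 and 3.11 CPM (-0.85, SE 0.198, adjusted p = 0.0395). With IFNAR1 antibody 4 members were called higher than with control antibody (median 0.35, 4.68% of all genes called). Pole was at 28.3, 32.2 and 20.9 CPM (1.27, SE 0.340, adjusted p = 0.0442) and Mcm10 at 25.1, 19 and 11.4 CPM (1.21, SE 0.318, adjusted p = 0.0397). Cdc45 was at 16.3, 16.2 and 10.8 CPM (1.01, SE 0.247, adjusted p = 0.0285). All of these lay above the control antibody libraries. The clamp loader subunit Rfc4 was at 3.83, 3.25 and 2.49 CPM with control antibody and at 8.56, 6.13 and 6.005 CPM with IFNAR1 antibody (1.07, SE 0.246, adjusted p = 0.0227).

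Between genotypes no member was called in any arm by edgeR. Without antibody the median was -0.03 and 2 members had an unadjusted p under 0.05 (8.16% of all genes called). With control antibody it was -0.06 and 3 members did (5.11%), and DESeq2 called none in either arm. With the IFNAR1 antibody 42 of 43 members were lower in the cKO (median -0.47), and edgeR called 0.698% of all genes. Of the members 20 had an unadjusted p under 0.05 by edgeR, as had 2067 of all 17191 genes tested. DESeq2 called 4 members, without its own share of all genes given here, so this shows only how far the count moved. Mcm4 was at 47.9, 57.5 and 44.0 CPM in WT and at 28.1, 31.5 and 24.7 CPM in the cKO (-0.82, SE 0.206, edgeR adjusted p = 0.0962). Its groups did not overlap. Orc6 had the lowest adjusted p, at 16.2, 17.5 and 12.7 CPM in WT and 10.2, 9.36 and 6.77 CPM in the cKO (-0.81, SE 0.198, adjusted p = 0.0851). The difference in the cKO effect between the IFNAR1 and control antibodies was not called for any member by either tool (median -0.39, 5 at an unadjusted p under 0.05, 0.0% of all genes).

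In this experiment 5 libraries lay apart on the first principal axis, which held 44.6% of the variance: WT without antibody replicates 2 and 3, WT IFNAR1 antibody replicates 1 and 2 and cKO IFNAR1 antibody replicate 1. They stood at 41.6 to 110.4 and the other 13 at -65.7 to 10.2. Cdt1 was high in them, at 136, 90.1, 119, 203 and 119 CPM against 37.1 to 76.5 CPM in the others, and the heat-shock genes Hspa1a and Hspa1b summed to 1787 and 173 CPM in WT replicate 2 and cKO replicate 1 with IFNAR1 antibody. Without the 5 libraries, 16 members were called for control antibody against none in WT (17.9% of all genes called) and 17 in the cKO (14.6%). For the IFNAR1 against the control antibody 10 were called in WT (5.59%) and 1 in the cKO (12.4%), and 1 between genotypes with control antibody, Chaf1b, higher in the cKO at 0.57 (23.3%). Single libraries left in an arm were assumed to vary like the others.

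These counts depended on single libraries. They are given here without the share of all genes called in each fit, so they show only how far the count moved. For control antibody against none in WT, leaving out control antibody replicate 2 or 3 left 0 calls and leaving out no-antibody replicate 2 or 3 left 4. In the cKO, leaving out no-antibody replicate 1 or 2 or control antibody replicate 2 or 3 left 0, and leaving out control antibody replicate 1 gave 12. For IFNAR1 against control antibody in WT, leaving out control antibody replicate 2 or 3 left 9 and IFNAR1 antibody replicate 1 left 11, and a fit to the 2 groups alone left 0. In the cKO, leaving out control antibody replicate 2 or 3 or IFNAR1 antibody replicate 1 left 0 and IFNAR1 antibody replicate 2 left 1. Between genotypes, leaving out WT IFNAR1 antibody replicate 3 gave 7 calls and cKO replicate 1 gave 2, and leaving out WT no-antibody replicate 1 gave 3 in the arm without antibody.

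The mitotic genes moved with the members in these arms. All 16 were called lower with control antibody than with none in WT (median -2.01) and 5 in the cKO (median -1.83), and 16 in WT and 14 in the cKO were higher with IFNAR1 than with control antibody. Mki67 in WT was at 559.9, 536 and 532 CPM without antibody, at 179, 73.0 and 83.7 CPM with control antibody and at 1098, 1146 and 424 CPM with IFNAR1 antibody. Macrophage markers summed to 5750 to 6267, 4428 to 4576 and 4937 to 7347 CPM in the same arms.

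**Figure D3:**
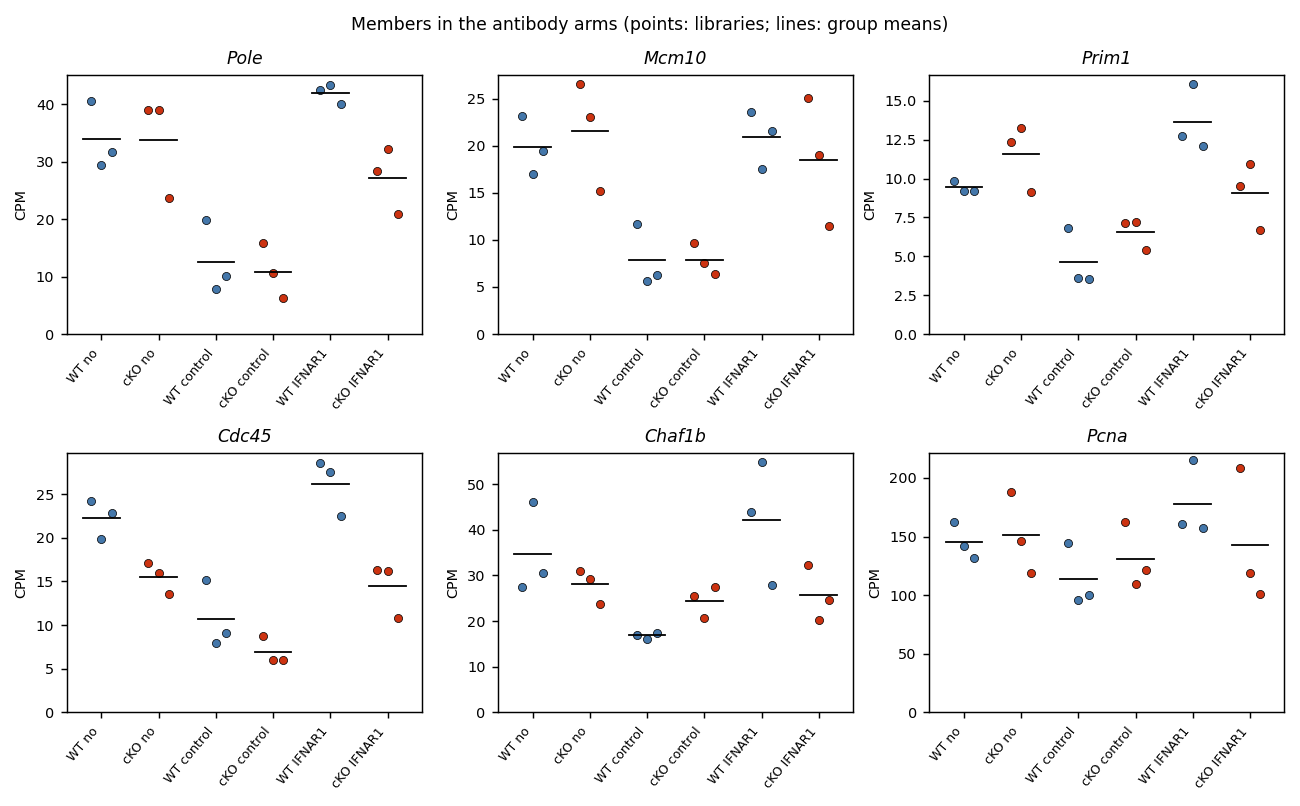
CPM of the polymerase epsilon subunit Pole, Mcm10, Prim1, Cdc45, Chaf1b and Pcna in the 6 groups of the antibody experiment, with a point for each library and a line at each group mean. In both genotypes the control antibody libraries of Pole (6.22 to 19.9) lie under those without antibody (23.6 to 40.5) and with IFNAR1 antibody (20.9 to 43.4), while those of Pcna (96.0 to 162) overlap those without antibody (119 to 188).

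The cKO was compared with WT in each of the 3 BMDM sets. In set 1, 28 of 43 members were higher in the cKO and none lower, beside 34.6% of all genes called and 17.9% called higher (median 0.49). In set 3, 30 were higher and none lower, beside 35.9% called and 17.1% called higher (median 0.65). Of these members 26 were common to both sets, 92.9% of the first list and 86.7% of the second. In set 2 none was called by edgeR or DESeq2, 1 had an unadjusted p under 0.05, and 28 of 43 were lower in the cKO (median -0.06, 21.9% of all genes called).

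Cdc6 had the largest rise in both sets. It was at 16.8, 21.4 and 14.4 CPM in WT set 1 and at 35.3, 41.6 and 39.5 CPM in cKO set 1 (1.14, SE 0.191, edgeR adjusted p = 5.43e-05). In set 3 it was at 7.10, 18.8 and 15.3 CPM in WT and at 32, 34.5 and 33.0 CPM in the cKO (1.29, SE 0.194, adjusted p = 1.32e-05). In set 2 the WT libraries stood as high as the cKO, at 44.2, 37.4 and 41.3 CPM against 39.0, 41.9 and 36.9 CPM. The sets thus parted by their WT libraries, and the cKO libraries of all sets lay at 32 to 41.9 CPM.

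The helicase showed the same order. Mcm2 was at 69.1, 99.3 and 78.0 CPM in WT set 1, 198, 175 and 191 CPM in WT set 2 and 32.5, 99.1 and 85.1 CPM in WT set 3. In the cKO it was at 152, 176 and 174 CPM in set 1, at 169, 183 and 161 CPM in set 2 and at 144, 181 and 159.7 CPM in set 3. Its log2 fold change was 1.02 (SE 0.220, edgeR adjusted p = 0.00078) in set 1 and 1.17 (SE 0.221, adjusted p = 0.000198) in set 3. Mcm4 (0.91 and 1.05) and Mcm6 (0.89 and 0.96) followed, and all 6 MCM2-7 genes were called in both sets. Pcna was at 211, 289 and 256 CPM in WT set 1, 654, 603 and 619 CPM in WT set 2 and 118, 294 and 262 CPM in WT set 3, against 328 to 492 CPM in all cKO libraries. It was called higher in the cKO of set 1 (0.66, SE 0.191, adjusted p = 0.00883) and set 3 (0.77, SE 0.192, adjusted p = 0.0029), and was at -0.50 in set 2 (SE 0.190, adjusted p = 0.0639). Of the 6 origin recognition genes 2 were called in each set, Orc2 and Orc4 in set 1 and Orc1 and Orc2 in set 3. Gmnn, Gins2, Orc3 and Rfc2 were among those called in neither.

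Members that act on chromatin and on the lagging strand also rose in set 1. Chaf1a was at 33.5, 56.9 and 43.5 CPM in WT set 1 and at 61.8, 64.7 and 63.9 CPM in cKO set 1 (0.50, SE 0.193, adjusted p = 0.0458). Lig1 was at 80.8, 117 and 99.9 CPM in WT set 1 and at 137, 139 and 146 CPM in cKO set 1 (0.50, SE 0.173, adjusted p = 0.0266). In both genes the cKO libraries lay above all WT libraries of that set. Gins2 overlapped, at 18.7, 32.3 and 36.1 CPM and 28.4, 33.3 and 31.3 CPM (0.10, SE 0.240, adjusted p = 0.796). Rfc3, at 19.9, 24.7 and 21.9 CPM in WT and 28.1, 31.8 and 29.9 CPM in the cKO, was called (0.43, SE 0.145, adjusted p = 0.0225), as was Rpa2 (0.49, SE 0.188, adjusted p = 0.0481). These calls were lost without WT set 1 replicate 1. The edgeR adjusted p was then 0.224 for Chaf1a, 0.137 for Lig1, 0.0966 for Rfc3 and 0.189 for Rpa2.

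The change of the cKO effect between sets was tested as an interaction, a comparison added after the data were seen. From set 2 to set 1 it was called for 10 members, all more positive in set 1. Of all genes 20% were called, a share near that of the members. From set 2 to set 3 it was called for 15 members (20.2% of all genes). In the first these were Cdc6 (1.20, SE 0.263, edgeR adjusted p = 0.00229), Mcm2 (1.16), Pcna (1.16), Mcm4 (1.10), Mcm6, Mcm3, Orc2, Cdt1, Pole2 and Orc4. In the second Cdc6 (1.35, SE 0.265, adjusted p = 0.00083), Mcm2 (1.31), Pcna (1.26) and Mcm4 (1.25) led again. Both share the libraries of set 2.

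The sets also differed in sex-linked RNA. In set 2 and the Mavs double KO, Xist was at 1001 to 1229 CPM and Y-linked genes at 0 to 0.176 CPM. In sets 1 and 3 and the Sting and Irf7 double KOs, Xist was at 0 to 0.0871 CPM and Y-linked genes at 138 to 201 CPM. The sex of the mice and the set cannot be told apart. The mitotic genes did not move with the machinery between sets: their cKO effect was lower in set 1 than in set 2 for all 16 (median -0.62, 5 called) and in set 3 for all 16 (median -0.59, 6 called). Mki67 was at 641, 982 and 599 CPM in WT set 1, at 436, 357 and 401 CPM in WT set 2 and at 455, 939.8 and 757 CPM in WT set 3, against 482 to 728 CPM in the cKO. Of the E2F and G1/S regulators 17 of 27 were called higher and 3 lower in sets 1 and 3 alike, and of the 38 other replication genes 21 and 27 were called higher and 1 lower in each. Myeloid progenitor markers were higher in the cKO of every set, with 8 of 8 called and summed levels of 8.997 to 26.8 CPM in WT and 80.7 to 194 CPM in the cKO. Their part in the member values was not tested.

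WT set 3 replicate 1 stood apart, with MCM2-7 at 287 CPM against 755 and 668 CPM. Without it, 20 members were called higher in the cKO of set 3 (median 0.39, 29.8% of all genes called) and 13 for the change from set 2 to set 3 (16%). In the same fit 32 were called in set 1 (37.5%), 1 in set 2, Pcna, lower in the cKO at -0.50 (25%), and 22 for the change from set 2 to set 1 (23.7%). Leaving out WT set 1 replicate 1 left 13 calls in set 1 and cKO set 1 replicate 2 left 18. Leaving out WT set 1 replicate 2 gave 17 for the change from set 2 to set 1, and WT set 3 replicate 2 gave 28 for the change from set 2 to set 3. A fit to the 2 groups of set 3 alone left 11. The counts without a share of all genes called beside them show only how far the count moved and are no result about the members.

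**Figure D4:**
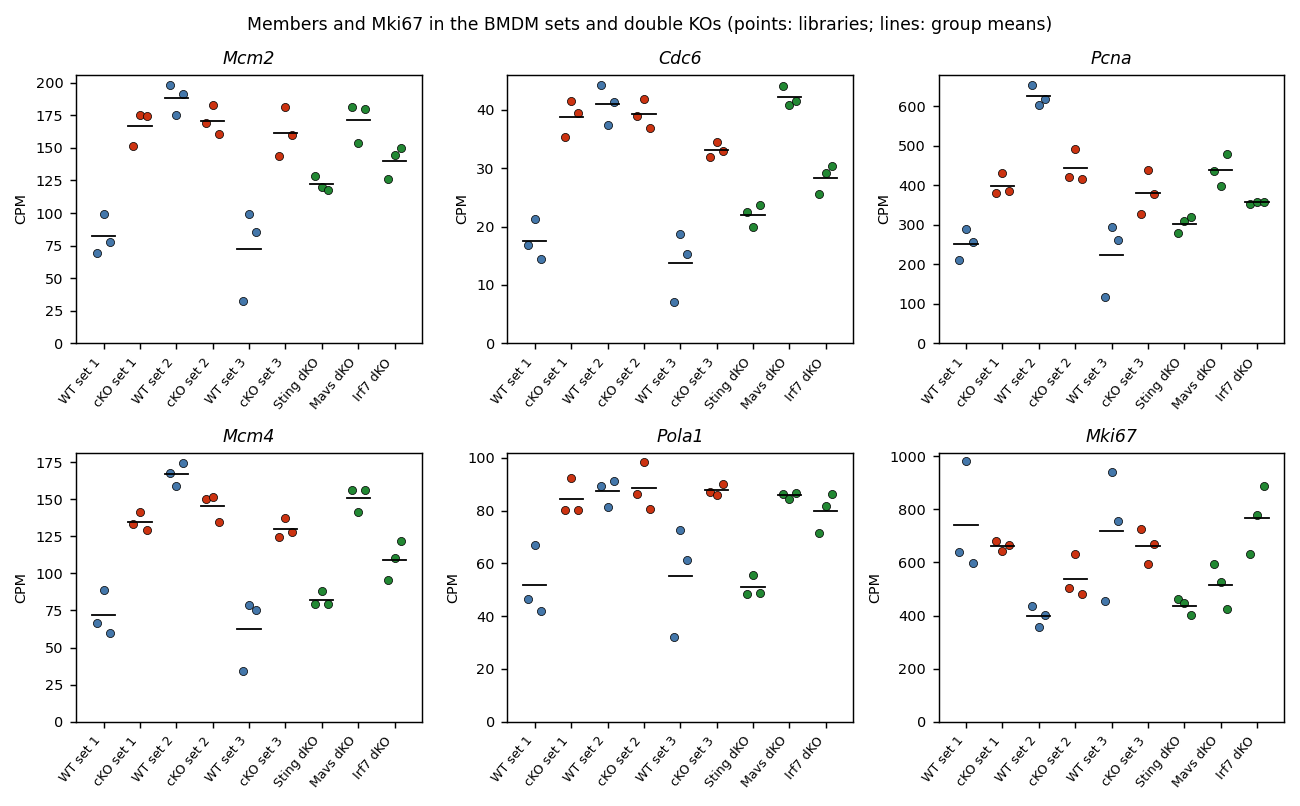
CPM of Mcm2, Cdc6, Pcna, Mcm4, Pola1 and the cycling-cell marker Mki67 in the 9 groups of the BMDM sets and double KOs, with a point for each library and a line at each group mean. For Mcm2 the WT libraries of set 2 (175 to 198) lie above those of sets 1 and 3 (32.5 to 99.3), and for Mki67 the WT libraries of set 2 (357 to 436) lie under those of sets 1 and 3 (455 to 982).

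The double KOs lacked the DNA sensor adaptor Sting, the RNA sensor adaptor Mavs or the interferon factor Irf7 on the H3.3 cKO background. Each was compared with the mean of the 3 cKO sets. Each double KO was a single group of 3 libraries, so its added knockout and differences between sets of cultures cannot be told apart. In the Sting double KO, 25 of 43 members were lower and none higher, beside 36.4% of all genes called and 17.2% called lower. All 43 had a negative fold change (median -0.43, against 0.02 over all genes). Pola1 was at 48.5, 55.7 and 48.8 CPM, under the 80.2 to 98.6 CPM of the 9 cKO libraries (-0.77, SE 0.156, edgeR adjusted p = 0.000473). Cdc6 was at 22.5, 20 and 23.7 CPM against 32 to 41.9 CPM (-0.75, SE 0.159, adjusted p = 0.000769). Pole2 was at 7.66, 9.62 and 9.10 CPM against 13.3 to 16.2 CPM (-0.73, SE 0.127, adjusted p = 0.000101), and Mcm4 at 79.5, 88.2 and 79.3 CPM against 124 to 152 CPM (-0.73, SE 0.155, adjusted p = 0.000711). None of these overlapped.

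The calls of the Sting double KO covered all 6 origin recognition genes (median -0.56), all 3 RPA genes, 3 of 6 MCM2-7 genes and neither CAF-1 gene. Orc4 was at 13.7, 19 and 15.5 CPM against 22.8 to 30.7 CPM in the cKO (-0.70, SE 0.127, edgeR adjusted p = 0.00016), and Gmnn at 31.2, 30.3 and 30.6 CPM against 37.8 to 56.6 CPM (-0.56, SE 0.169, adjusted p = 0.0115). Mcm2, at 128, 120.1 and 118 CPM against 144 to 183 CPM, was not called (-0.45, SE 0.182, adjusted p = 0.0565), nor was Cdt1. Taking a single cKO set as the reference gave 19, 17 and 20 calls for sets 1, 2 and 3. Without WT set 3 replicate 1 there were 33 (39.1% of all genes called), and without Sting double KO replicate 1 there were 16. The counts without a share of all genes called show only how far the count moved and are no result about the members. Beside this, 22 of 38 other replication genes, 16 of 27 E2F and G1/S regulators (2 higher) and 4 of 16 mitotic genes were called lower, and 6 of 10 macrophage markers and 4 of 6 stromal markers higher. The stromal markers summed to 164 to 202 CPM in the Sting double KO and to 23.3 to 70.9 CPM in the cKO. Their part in the member values was not tested.

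Few members were called in the Mavs and Irf7 double KOs. In the Mavs double KO only Cdt1 was called, at 152, 145 and 167 CPM against 94.9 to 147 CPM in the cKO (0.38, SE 0.120, edgeR adjusted p = 0.0440), beside 9.32% of all genes. Its groups overlapped, and the call was lost when 1 of 10 of the 12 libraries of the 4 groups was left out, cKO set 2 replicate 3 and cKO set 3 replicate 2 being the exceptions. In cKO set 2 Cdt1 was at 135, 131 and 147 CPM, and against that set alone it was not called in the Mavs double KO. In the Irf7 double KO Cdt1 was lower, at 84.5, 88.7 and 90.8 CPM (-0.43, SE 0.126, adjusted p = 0.029), as was Pold3, a subunit of polymerase delta, at 52.1, 57.7 and 60.3 CPM against 63.7 to 72.3 CPM in the cKO (-0.25, SE 0.0651, adjusted p = 0.0137), beside 10.6% of all genes. Without WT set 3 replicate 1 there were 8 lower (13.4% of all genes), without Irf7 double KO replicate 1 or 2 none and without replicate 3 there was 1. The counts without a share of all genes called show only how far the count moved. Whether the Sting, Mavs and Irf7 double KOs differ from each other was not tested.

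**Figure D5:**
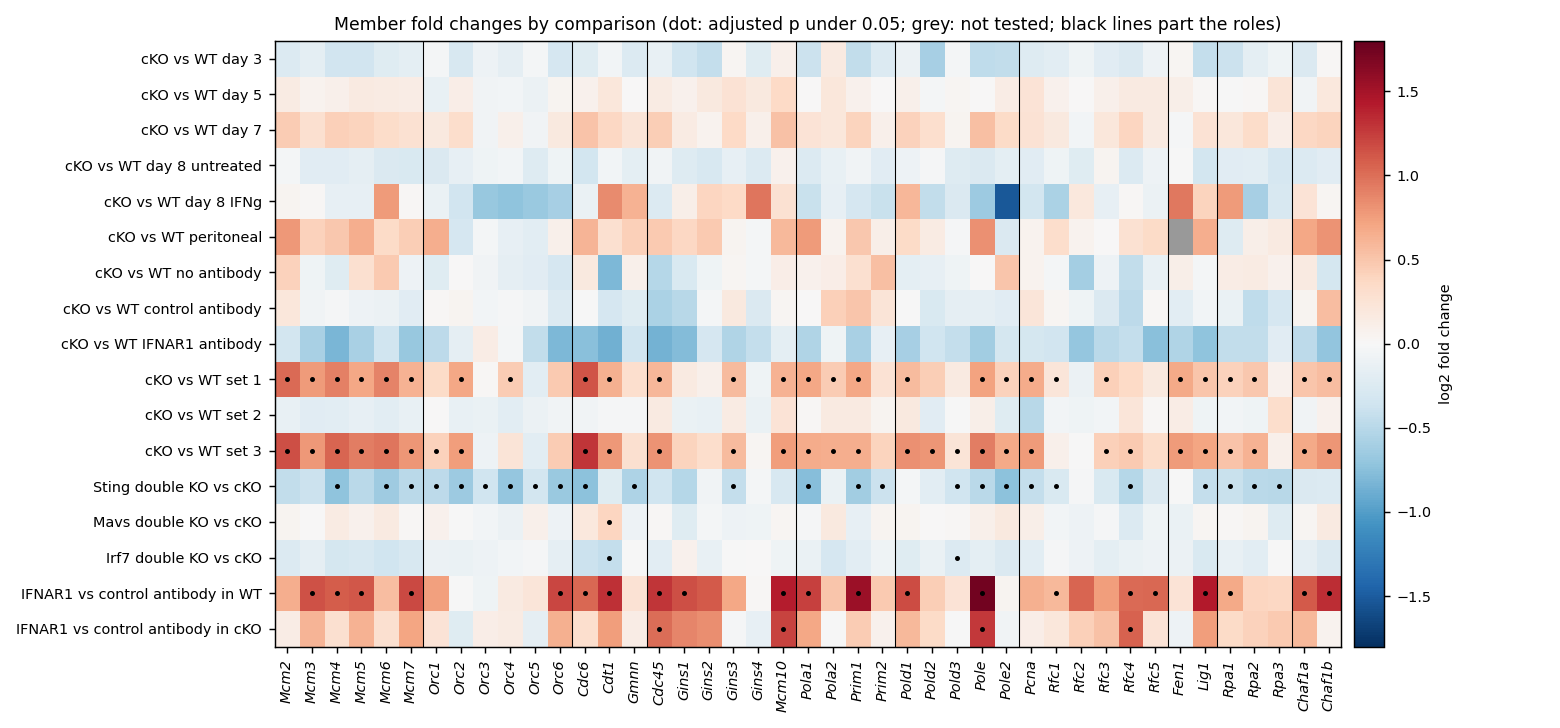
Log2 fold changes of the members (columns, parted by role) between genotypes and between the IFNAR1 and control antibodies (lines of cells), in colour from -1.8 to 1.8, with a dot where the adjusted p was under 0.05 and grey where a gene was not tested. Dots fill most of the cells for sets 1 and 3 (28 and 30 of 43) and for the Sting double KO (25), and there are none for the time course, day 8, the peritoneal cells or set 2.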

How the data were processed

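Per the labels and the study's methods, the authors trimmed adapters with Cutadapt, aligned reads to mm10 with STAR and deposited STAR's gene counts. Versions are not given in the sources used here. BMDM libraries were made by rRNA depletion with a kit that does not mark strand, peritoneal libraries with SMART-Seq v4. The deposited raw counts without regard to strand were used as they were, and the 4 leading lines of each file (unmapped 1.69% to 57.1%, multimapping 5.82% to 17.5%, no feature 3.76% to 28.9%, ambiguous 3.16% to 6.23%) were left out of library sizes. The labels call the libraries of a group biological replicates. Of 77 pairs of libraries within a group none was alike within sampling noise (lowest chi-square per degree of freedom 3.33).

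For each experiment, genes were filtered with filterByExpr (counts of 10 and 15), scaled by TMM and fitted with edgeR 4.0.16's quasi-likelihood test (limma 3.58.1, R 4.3.3), all groups in 1 model and p-values adjusted by Benjamini-Hochberg over all genes tested. The SE is the absolute log2 fold change over the square root of F. Double KOs were compared with the mean of the 3 cKO sets (9 libraries). The code was tested on simulated data. Alternatives were DESeq2 1.42.0, RLE scaling, other filters (none, or a mean of at least 1 CPM), legacy quasi-dispersions, a replicate block, only the groups compared, a single cKO set as reference and each library left out. Leaving out the 5 antibody libraries and testing the change of the cKO effect between sets were chosen after seeing the data. Where a count from an alternative fit stands without the share of all genes called, it shows only how far the count moved. Every reported test was fitted on groups alone, and a replicate block was used only as an alternative. The replicate numbers in the labels were read as pairing libraries where all 3 correlations of deviations were over 0.1. The reported SEs and adjusted p-values do not use that pairing. It was found for cKO against WT at day 3 (0.13 to 0.42), day 7 (0.15 to 0.47) and in peritoneal cells (0.14 to 0.19). It was also found for day 7 against day 5 in the cKO (0.23 to 0.49), IFNγ in WT (0.33 to 0.45) and control antibody against none in WT (0.15 to 0.28).

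All 43 members are accounted for. Values by library were given for a set of index genes, at least 1 per role, for at most 4 called members in each direction with the largest log2 fold changes and groups that do not overlap, for every called member where 5 or fewer were called, and for Pole2, Orc3, Orc4, Orc6, Mcm4, Mcm6, Pold2 and Rfc2 where a comparison turned on them. The members and lists were chosen with earlier results of these data known. The 2 cKO day 8 libraries whose treatment the labels do not give entered no comparison.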

Additional observations from a re-analysis of the deposited data

Results flagged for a closer look

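By a test of the difference itself, added after the data were seen, the cKO effect on some members differed between the BMDM sets. From set 2 to set 1 it changed for 10 of 43 members by edgeR's adjusted p, beside 20% of all genes, a share near that of the members. Among them were Cdc6 (log2 difference 1.20, adjusted p = 0.00229), Mcm2 (1.16, adjusted p = 0.00908), Pcna (1.16, adjusted p = 0.0036) and Mcm4 (1.10, adjusted p = 0.0036). From set 2 to set 3 it changed for 15 members, beside 20.2% of all genes. Among them were Cdc6 (1.35, adjusted p = 0.00083), Mcm2 (1.31, adjusted p = 0.00398), Pcna (1.26, adjusted p = 0.00176) and Mcm4 (1.25, adjusted p = 0.00124). Each difference was positive, that is, the cKO stood higher over WT in sets 1 and 3 than in set 2. The sets differ in Xist and Y-linked RNA as well, and the sex of the mice and the set cannot be told apart.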

How the results depend on the processing

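Of 478 counts of called members under an alternative, over 31 comparisons, 396 stayed within 1.5 times the reported one. These include counts that stayed at 0 where no member was called. Among comparisons with calls, the counts that stayed ranged from 5 of 14 for control antibody against none in the cKO to 14 of 14 for IFNγ in WT. No called member changed direction (2595 values kept their call and 454 lost it). The cause of the shifts was not tested. The counts below stand without the share of all genes called in each fit and are no result about the members. By DESeq2, cKO against WT gave 4 calls with IFNAR1 antibody and 1 with IFNγ, and control antibody against none in the cKO gave 10. With no filter there was 1 call for the Irf7 double KO, 1 for cKO against WT with IFNγ and 1 in peritoneal cells. Against cKO set 1 alone the Irf7 double KO had 1 call and the Mavs double KO 0, against set 2 alone the Mavs double KO had 0, and against set 3 alone they had 0 and 2. Without the 5 antibody libraries, IFNAR1 against control antibody gave 10 in WT and 1 in the cKO, cKO against WT with control antibody 1 and control antibody against none in the cKO 17. Fits to only the groups compared gave 0 and 0 for IFNAR1 against control antibody in WT and the cKO, 17 and 14 for control antibody against none, 6 for IFNγ in the cKO, 11 for the Irf7 and 2 for the Mavs double KO, 9 for day 5 against day 3 in the cKO, 6 for cKO against WT at day 3, 1 with control antibody, 1 without antibody, 7 in set 2, 11 in set 3 and 18 for set 2 to set 1. With a replicate block, IFNAR1 against control antibody in the cKO gave 7, control antibody against none in the cKO 13, cKO against WT 3 with IFNAR1 antibody and 1 in set 2, and the changes from set 2 to sets 1 and 3 gave 19 and 23. In these the libraries share only a number, and where the numbers pair them the block moved no count by over 1.5 times. Leaving out 1 library at a time gave 0 to 5 calls for cKO against WT at day 3, 0 to 14 at day 8 with IFNγ, 0 to 3 without antibody, 0 to 7 with IFNAR1 antibody, 13 to 32 in set 1, 0 to 1 in set 2 and 20 to 36 in set 3. It gave 0 to 9 for day 5 against day 3 in the cKO, 20 to 32 for IFNγ in WT, 12 to 26 in the cKO and 0 to 13 for their difference. It gave 0 to 11 and 0 to 12 for control antibody against none in WT and the cKO, 9 to 25 and 0 to 6 for IFNAR1 against control antibody, 7 to 22 and 11 to 28 for the changes from set 2 to sets 1 and 3, and 16 to 33, 0 to 1 and 0 to 8 for the Sting, Mavs and Irf7 double KOs. The other comparisons stayed at 0.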

Other observations

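The treatment of 2 cKO day 8 libraries is not in the labels, and they entered no comparison. In the first, Mcm2 was at 115.4 CPM, the 6 helicase genes Mcm2 to Mcm7 summed to 786.9 CPM and all members to 2426 CPM. In the second, Mcm2 was at 25.4 CPM, the helicase genes summed to 216 CPM and all members to 1334 CPM. Pcna was at 331 and 304 CPM, Orc4 at 28.0 and 34.6 CPM and Irf7 at 182 and 2015 CPM.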
